A study of Homo sapiens with 24 samples.

Results

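The comparison set Huh-7 cells of the control line, shGFP, kept at 1% oxygen for 24 h against cells of the same line kept in normoxia. Its members were chosen from the sample titles alone and are 4 of the 24 microarrays of the series, 2 arrays of 24 h hypoxia and 2 arrays of normoxia. Huh-7 is an established human hepatocellular carcinoma cell line. The study asked how NDRG3, a protein that is destroyed when oxygen is present, shapes the response of these cells to low oxygen. It used lines that stably express a short hairpin RNA delivered by lentiviral particles, either against GFP (shGFP, the control, whose target the human genome does not encode), against NDRG3 (shNDRG3) or against HIF1A (shHIF1A). The 11 groups of 2 or 3 arrays were shGFP cells after 3, 6, 12 and 24 h at 1% oxygen and in normoxia, shNDRG3 cells after 6, 12 and 24 h, and shHIF1A cells after 3, 6 and 12 h. All lines grew in the same serum-containing medium, and normoxia was measured in 1 group, so that hours in culture and hours at 1% oxygen cannot be told apart. Untransduced Huh-7 cells were not analysed here, so every value belongs to cells that carry a lentiviral hairpin. The labels do not say whether replicate arrays came from separate cultures, and each p-value therefore rests on the spread of replicate arrays alone, which may be technical.

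Cells sense oxygen mainly through hydroxylase enzymes that need it as a substrate. With oxygen they mark HIF-alpha proteins for destruction, and without it HIF accumulates and switches on glycolysis, vessel growth and survival genes. A day of severe hypoxia also limits respiration, and cells are known to answer by holding back costly work such as protein synthesis and division, by lowering mTORC1 activity and by recycling their own components through autophagy and the lysosome. HIF targets, glycolysis and ribosome biogenesis are the textbook lists of this response, and the description here turns to the other genes.

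After quantile normalisation the replicate arrays correlated at r = 0.997 (24 h) and r = 0.995 (normoxia) over the 15246 genes tested, and arrays of different groups at r = 0.939 to 0.943. The median absolute log2 difference was 0.106 between the 24 h replicates and 0.131 between the normoxia replicates, against 0.297 to 0.309 between arrays of different groups. No probe had the same deposited signal on any 2 of these 4 arrays. Before normalisation the 24 h arrays were dimmer, with median signals of 114.8 and 116.9, against 145.3 and 147.9 in normoxia, and without any scaling the median gene was lower at 24 h by 0.41 on the log2 scale. Levels and changes below are therefore relative to the other genes of the same array, and in bulk RNA fewer cells of a type and less RNA per cell cannot be told apart. A gene was called when limma's adjusted p was under 0.05 (Benjamini-Hochberg over all 15246 genes), and "rose" and "fell" are used only for such genes, at 24 h relative to normoxia. A value after ± is the standard error of a log2 change between 2 arrays and 2 arrays. By that rule 6917 genes (45.4%) passed, of which 3223 rose (21.1%) and 3694 fell (24.2%). At 2-fold or more, 965 genes rose (6.33%) and 932 fell (6.11%). At 4-fold or more the counts were 196 and 82, and at 8-fold or more 42 and 7, so the far end of the distribution held more genes that rose. The 2 arrays of 24 h did not overlap the 2 of normoxia for 10682 genes (70.1%), so the absence of overlap alone says little about a single gene.

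The labelled cell type was checked against hepatocyte markers. Of 35 listed, 18 had a probe that passed the filter, and 5 of those exceeded 1.5 times the array median in each group. CPS1, the first enzyme of the urea cycle, was bright at 11118 and 10590.1 normalised signal units at 24 h, against 16254 and 17969.9 in normoxia. AFP, TTR and SERPINA1 lay within 0.3 log2 units of the array median in both groups, and ALB had signals of 183 and 166 at 24 h, under 1.5 times the array median, against 217 and 282 in normoxia. These 4 secreted liver proteins, which usually define hepatocytes, were thus near or little above the array median, and the cells are called here by their label, Huh-7. Across the measured hepatocyte markers 2 rose and 4 fell. Their median log2 change was 0.02 (-0.32 with the signals as deposited, where none rose and 10 fell). With median-centred arrays none rose and 4 fell. The summed signal of these markers, most of it that of CPS1, was 14123 to 14595 at 24 h, against 19964 to 21664 in normoxia. Of 14 blood cell markers 10 were measured, 3 rose and none fell (CSF1R, CD68 and MS4A1, of which CD68 lost its call and MS4A1 reversed to -0.04 with the signals as deposited, and MS4A1 also lost its call when any of 3 of the 4 arrays was left out), with 2 of them over 1.5 times the array median at 24 h, against 1 in normoxia. CD3D, ITGAM, HBB, HBA1 and FCGR3A lay within 0.3 log2 units of the array median in both groups. Of 9 measured fibroblast markers 2 rose and 1 fell, and of 6 measured endothelial markers 4 rose and 2 fell. With the signals as deposited 1 blood cell marker rose and 6 fell, 2 fibroblast markers rose and 5 fell, and 1 endothelial marker rose and 2 fell.

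The 12 largest rises outside the textbook lists spanned several functions. EFEMP2, which encodes the elastic fibre protein fibulin-4, had signals of 1902 and 2073 in the 24 h arrays, against 143 and 151 in the normoxia arrays. Both normoxia values lay under 1.5 times the array median, and the difference was at least 10.1-fold (log2 change 3.76 ± 0.13, adjusted p = 2.28e-16). Where the mean log2 signal of a group lay under that bound, the fold is given as a minimum, taken against the bound. S100A9 had signals of 11502 and 9914 at 24 h, against 705 and 916 in normoxia. Its partner S100A8, with which it forms the calcium-binding protein calprotectin of myeloid and stressed epithelial cells, had 2293 and 2144 at 24 h, against 204 and 216 in normoxia. The groups of both genes lay far apart, with rises of 13.3-fold and 10.6-fold (log2 changes 3.73 ± 0.14 and 3.40 ± 0.13). IL1B, the inflammatory cytokine interleukin-1 beta, had signals of 7784 and 8278 at 24 h, against 731 and 692 in normoxia. It rose 11.3-fold (log2 change 3.50 ± 0.14, adjusted p = 1.59e-15), and its gap was many times that between replicates.

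MB, the oxygen-binding muscle protein myoglobin, had signals of 2158 and 1928 at 24 h, against 169.8 and 169.9 in normoxia, where it lay under the bound, and rose at least 10.4-fold. SMTN, the cytoskeletal protein smoothelin, rose at least 10.6-fold, with 1908 and 2269.6 at 24 h, against 170.2 and 187 in normoxia. PTGS1, the cyclooxygenase COX-1, had 2878 and 2667 at 24 h, against 227 and 261 in normoxia. PLA2G4D, a cytosolic phospholipase A2, the enzyme class that releases the fatty acids cyclooxygenases use, rose at least 5.01-fold. ANG, the secreted ribonuclease angiogenin, had 21426 and 20235 at 24 h, against 1881 and 2078 in normoxia, a rise of 10.5-fold. PLAT, tissue plasminogen activator, had 8999 and 9265 at 24 h, against 975 and 862 in normoxia. SPAG4, a nuclear envelope protein, rose 10.6-fold, and IL32, a cytokine, rose 10-fold. No 24 h array overlapped a normoxia array for any of these 12 genes, which was part of the rule that chose them. The adjusted p of the 12 lay between 2.28e-16 and 3.49e-11.

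**Figure D1:**
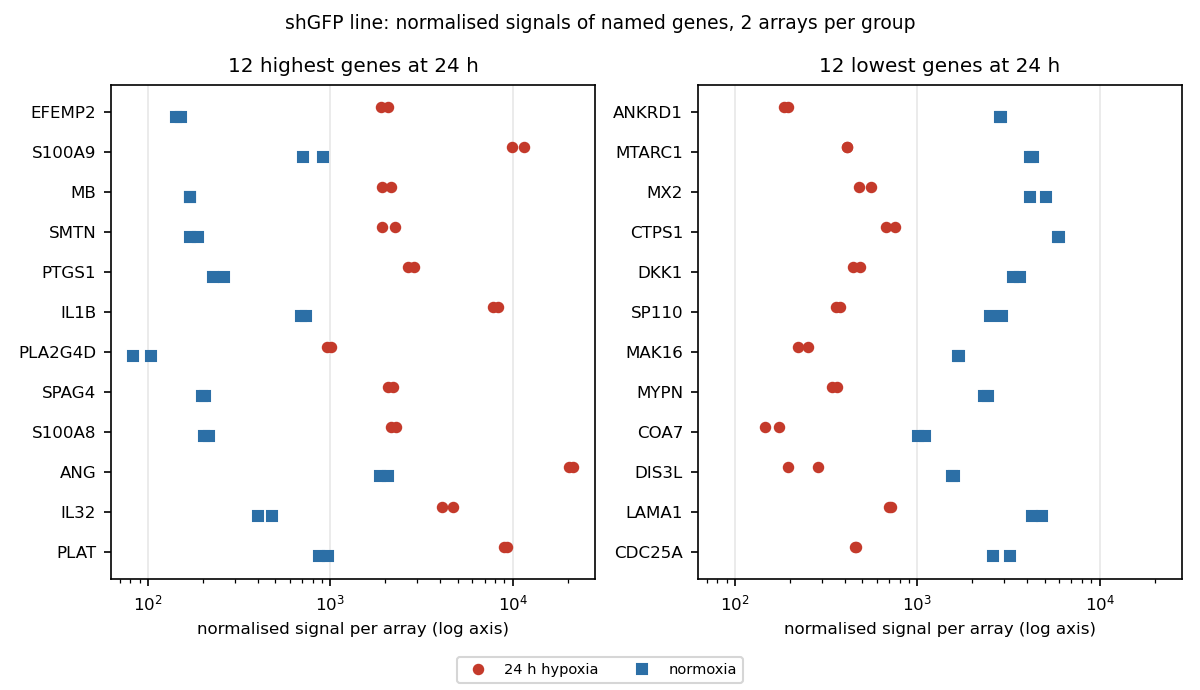
Normalised signal of each array (x axis, log scale) for the 12 genes with the highest and the 12 with the lowest log2 change at 24 h outside the HIF, glycolysis and ribosome biogenesis lists, with 24 h hypoxia as red circles and normoxia as blue squares, 2 arrays per group. The 2 arrays of a group lie close together and the groups lie apart for each gene, for example EFEMP2 at 1902 and 2073 at 24 h, against 143 and 151 in normoxia, and ANKRD1 at 196 and 185, against 2887 and 2842. The absence of overlap was part of the rule that chose these genes.

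The promoters of the first 2 genes that rose and the first 2 that fell by size are shown because they sit at the ends of the distribution. Each runs from 250 bases before to 50 bases from the start of the gene, 5′ to 3′ on the gene's strand, from RefSeq on GRCh38.p14. EFEMP2 lies on the minus strand at chr11:65872751-65873050, S100A9 on the plus strand at chr1:153357604-153357903, ANKRD1 on the minus strand at chr10:90921038-90921337 and MTARC1 on the plus strand at chr1:220786663-220786962. They were searched on both strands for ACGTG and GCGTG, the core letters of the HIF response element, for CACGTG, the E-box bound by MYC and MAX, which contains ACGTG on both strands, and for TGANTCA, the AP-1 site. Capitals mark the single match, an AP-1 site at bases -195 to -189 of ANKRD1, counted from the start. No other match to these letters lay in the 4 windows.
EFEMP2: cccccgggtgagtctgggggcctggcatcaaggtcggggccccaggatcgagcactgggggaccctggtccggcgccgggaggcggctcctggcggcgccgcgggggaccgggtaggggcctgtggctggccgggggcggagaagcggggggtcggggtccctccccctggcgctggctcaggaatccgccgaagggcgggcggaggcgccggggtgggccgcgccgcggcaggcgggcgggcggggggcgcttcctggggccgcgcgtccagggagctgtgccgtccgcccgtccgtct
S100A9: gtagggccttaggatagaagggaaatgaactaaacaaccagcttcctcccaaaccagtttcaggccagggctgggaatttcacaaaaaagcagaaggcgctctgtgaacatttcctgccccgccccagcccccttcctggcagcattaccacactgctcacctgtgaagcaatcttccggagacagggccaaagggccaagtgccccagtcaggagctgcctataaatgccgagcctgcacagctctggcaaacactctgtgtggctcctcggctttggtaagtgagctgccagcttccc
ANKRD1: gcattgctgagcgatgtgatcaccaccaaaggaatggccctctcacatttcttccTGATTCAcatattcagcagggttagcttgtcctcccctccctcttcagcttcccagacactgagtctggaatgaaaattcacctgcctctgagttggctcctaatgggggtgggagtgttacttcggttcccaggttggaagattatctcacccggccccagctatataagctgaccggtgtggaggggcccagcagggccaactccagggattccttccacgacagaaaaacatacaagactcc
MTARC1: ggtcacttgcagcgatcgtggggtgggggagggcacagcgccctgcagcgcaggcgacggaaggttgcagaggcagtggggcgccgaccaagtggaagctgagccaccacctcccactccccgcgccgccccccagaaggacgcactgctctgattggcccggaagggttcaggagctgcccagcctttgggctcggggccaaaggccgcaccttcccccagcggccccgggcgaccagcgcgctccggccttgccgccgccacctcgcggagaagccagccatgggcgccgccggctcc

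The 12 largest falls also spanned several functions. ANKRD1, a nuclear and sarcomere ankyrin-repeat protein and a well known target of YAP, had signals of 196 and 185 at 24 h, against 2887 and 2842 in normoxia, and fell at least 14.6-fold (log2 change -3.91 ± 0.15, adjusted p = 9.48e-16). MTARC1, a mitochondrial molybdenum-containing amidoxime reductase, had 411 and 413 at 24 h, against 4289 and 4135 in normoxia, a fall of 10.2-fold. DKK1, the secreted inhibitor of Wnt signalling, had 444 and 484 at 24 h, against 3677 and 3360.5 in normoxia, and fell 7.58-fold. For these 3 genes no 24 h array overlapped a normoxia array, which was part of the rule that chose all 12. MX2, an interferon-induced antiviral GTPase, had 476 and 556 at 24 h, against 5052 and 4153 in normoxia, a fall of 8.9-fold. CTPS1, which makes CTP, had 755 and 676 at 24 h, against 5956 and 5876 in normoxia, a fall of 8.28-fold. LAMA1, a laminin chain of basement membranes, had 716 and 697 at 24 h, against 4241 and 4816 in normoxia. SP110, an interferon-induced nuclear body protein, had 359 and 377 at 24 h, against 2489.8 and 2914 in normoxia. MYPN, the sarcomere protein myopalladin, and CDC25A, the phosphatase that drives entry into S phase, fell 6.77-fold and 6.32-fold. COA7, an assembly factor of cytochrome oxidase, fell at least 5.38-fold, DIS3L, a catalytic exosome subunit, 6.6-fold, and MAK16, a ribosome assembly factor, 7.15-fold.

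Genes were then described by list, 63 in all, by how many measured members rose and fell and by the median log2 change, beside the 21.1% that rose, the 24.2% that fell and a median near 0 over all genes. List members beyond 4 per list are named here after their values were seen. Each list with a median below 0 named below also had a median below 0 with the arrays scaled to their medians and with the signals as deposited, and on the scale as deposited no more of its members rose and no fewer fell. Where a median above 0 is printed, the value with the signals as deposited, where the median of all genes was -0.41, is given in the same sentence.

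**Figure D2:**
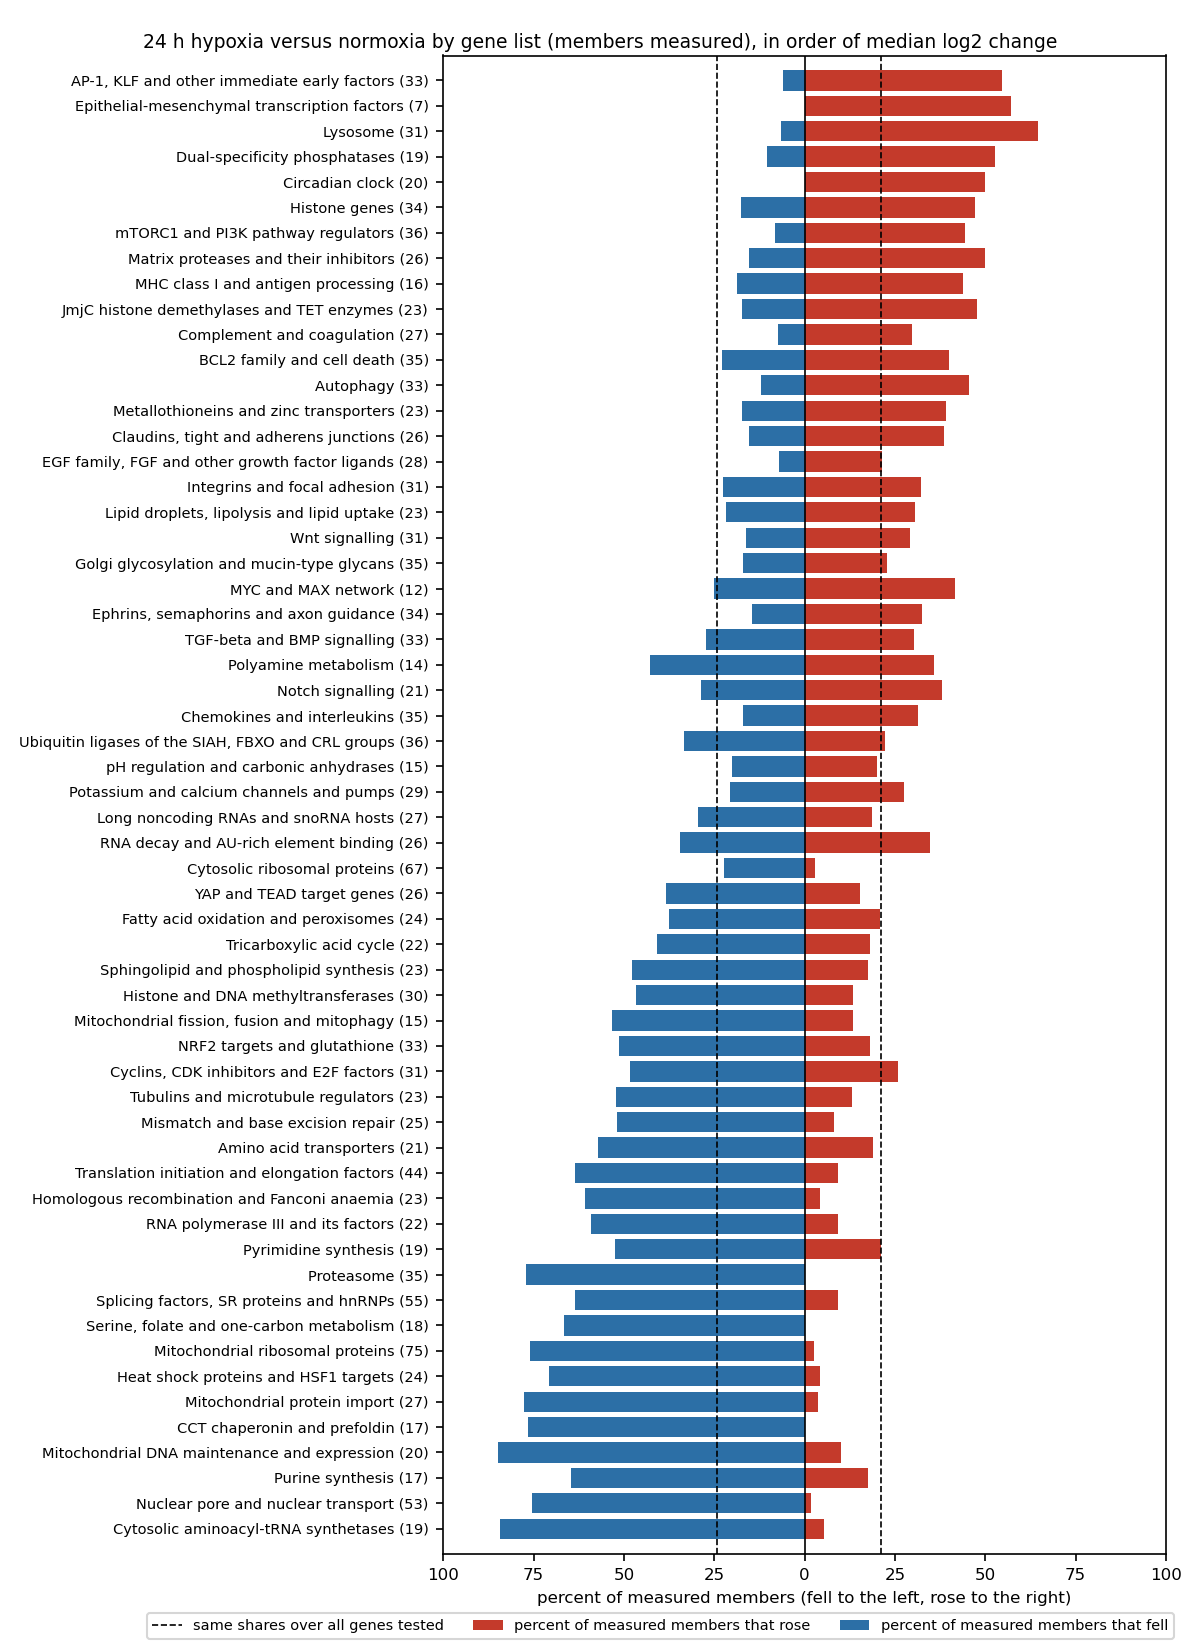
Percent of the measured members of each list that rose (red, to the right) or fell (blue, to the left) at 24 h against normoxia, ordered by the median log2 change, with the number measured in brackets; dashed lines mark 21.1% and 24.2%, the shares over all genes. Cytosolic aminoacyl-tRNA synthetases had 16 of 19 members lower and the lysosome 20 of 31 higher, where with the signals as deposited 7 lysosomal genes rose and 10 fell.

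Inflammatory cytokines, complement and antigen presentation were described first. Of 35 chemokines and interleukins, 11 rose and 6 fell, and the median was 0.04 (-0.35 with the signals as deposited, where 8 rose and 17 fell, and -0.01 with median-centred arrays), so the rises were large in a few genes and the list as a whole lay near 0. CCL20, a chemokine for dendritic cells and lymphocytes, had signals of 6644 and 6669 at 24 h, against 850.1 and 849 in normoxia, and rose 7.84-fold. IL1A, the related cytokine interleukin-1 alpha, had 5839 and 6105 at 24 h, against 626 and 724 in normoxia, a rise of 8.86-fold. CXCL8, the neutrophil chemokine, and IL6 rose 4.05-fold and 2.84-fold. CXCL11 and TNFSF10, which interferon induces, fell by 0.97 and 0.98, and IL18 fell by 0.60. Blood cell markers moved beside these cytokines as given above, and their part in the result was not tested.

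Of 27 complement and coagulation genes, 8 rose and 2 fell, with a median of 0.16, which was -0.24 with the signals as deposited (4 rose and 7 fell on that scale). CFD, complement factor D, had 12867 and 12984 at 24 h, against 3969 and 4589.7 in normoxia, and rose 3.03-fold. C3, the central complement protein, had 1142 and 1159.6 at 24 h, against 392 and 381 in normoxia, and rose 2.98-fold. CFB and the complement protease-like gene C1RL rose 2.17-fold and 2.74-fold. Of 16 genes of MHC class I and antigen processing, 7 rose and 3 fell, with a median of 0.20, which was -0.28 with the signals as deposited (4 rose and 7 fell on that scale). The class I heavy chain genes named here rose under every scaling run. HLA-F had 17948 and 17349.9 at 24 h, against 5511 and 6124 in normoxia, though its other kept probe, which was dim, did not pass (log2 change 0.23), and HLA-G, HLA-C and HLA-B rose 3.5-fold, 2.67-fold and 2.22-fold. The 3 that fell act upstream of peptide loading, TAP1 and TAP2, the peptide transporter (log2 changes -0.50 and -0.81), and NLRC5, the class I transactivator, which lay under the bound in both groups. Class I probes can hybridise to transcripts of related genes, so the share of each HLA gene is uncertain.

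Matrix proteases and their inhibitors had 13 of 26 members higher and 4 lower, with a median of 0.22, which was -0.28 with the signals as deposited (5 rose and 11 fell on that scale). The plasminogen system rose in several parts: beside PLAT, PLAU, urokinase, had 869 and 913 at 24 h, against 421 and 387 in normoxia, and PLAUR, its receptor, rose by 1.37 on the log2 scale. SERPINE2, an inhibitor of these proteases, had 1235 and 1406 at 24 h, against 532 and 513 in normoxia, and rose 2.52-fold. ADAMTS1, a protease of proteoglycans, went the other way, at 176 and 211 at 24 h, against 996 and 977 in normoxia, a fall of at least 5.02-fold.

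Ligands and receptors of several pathways moved singly rather than as lists. Among 28 growth factor ligands 6 rose and 2 fell (median 0.12, -0.27 with the signals as deposited, where 3 rose and 11 fell). PDGFB, a platelet-derived growth factor chain, had 768 and 869.7 at 24 h, against 171 and 192 in normoxia, and rose at least 4.16-fold. LIF, a cytokine of the IL-6 family, and EDN2, endothelin 2, rose at least 2.61-fold and at least 2.1-fold, and FGF2 fell 1.62-fold. Of 31 Wnt genes 9 rose and 5 fell (median 0.09, -0.31 with the signals as deposited, where 5 rose and 15 fell). The receptor FZD4 had 5035 and 5064 at 24 h, against 1289.6 and 1408 in normoxia, FZD8 rose 3.27-fold, and the ligand WNT7B rose 2.99-fold. FZD6, another receptor, fell by 1.27 on the log2 scale.

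Of 21 Notch genes 8 rose and 6 fell (median 0.04, -0.07 with median-centred arrays and -0.41 with the signals as deposited, where 4 rose and 13 fell). HEY1, a transcriptional repressor that Notch induces, had 4331 and 4331 at 24 h, against 474 and 446 in normoxia, and rose 9.42-fold (log2 change 3.24 ± 0.12). HES1, a related repressor, and RBPJ, the DNA-binding partner of Notch, rose by 1.82 and 1.40, while HES2 fell by 0.53. Of 33 TGF-beta and BMP genes 10 rose and 9 fell (median 0.08, -0.34 with the signals as deposited, where 3 rose and 17 fell). ID3, an inhibitor of basic helix-loop-helix factors that BMP induces, had 3219.5 and 3144 at 24 h, against 17969.9 and 17643 in normoxia, a fall of 5.6-fold. NOG, the secreted BMP antagonist noggin, had 1103 and 1191 at 24 h, against 222 and 163 in normoxia, a rise of at least 5.84-fold. SMAD3, a transducer of TGF-beta, rose 4.42-fold, and TGFBR3, the coreceptor betaglycan, fell 4.37-fold. Of 34 ephrin, semaphorin and axon guidance genes 11 rose and 5 fell (median 0.08, -0.02 with median-centred arrays and -0.36 with the signals as deposited, where 5 rose and 16 fell). SEMA4B, a membrane semaphorin, had 7428 and 7983 at 24 h, against 1273 and 1338 in normoxia, while its other kept probe, which was dim, did not pass (log2 change 0.17). EFNA1, an ephrin ligand, had 19946 and 22586 at 24 h, against 6619 and 7275 in normoxia.

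Transcription factors of the immediate early class had the highest median of the 63 lists. Of 33 AP-1, KLF and other immediate early factors 18 rose and 2 fell, with a median of 0.73, which was 0.21 with the signals as deposited (13 rose and 10 fell on that scale). JUN had signals of 12565 and 10878 at 24 h, against 2189 and 2887 in normoxia, and rose 4.65-fold. FOS had 3146 and 3862 at 24 h, against 1005 and 875 in normoxia, and rose 3.72-fold. ATF3, a stress-induced partner of the AP-1 family, and MAFF, a small MAF protein, rose 2.71-fold and 3.68-fold. The 2 that fell were SRF, the serum response factor (log2 change -1.02), and KLF4 (-0.54). Dual-specificity phosphatases, which switch off MAP kinases, had 10 of 19 members higher and 2 lower, with a median of 0.41, which was 0.04 with the signals as deposited (6 rose and 8 fell on that scale). DUSP6, which acts on ERK, had 982 and 913 at 24 h, against 338 and 484 in normoxia, DUSP16 rose 2.85-fold, and DUSP2 fell by 1.12 on the log2 scale.

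Regulators of mTORC1 and PI3K were counted with activators and inhibitors together. Of 36 genes 16 rose and 3 fell, with a median of 0.22, which was -0.18 with the signals as deposited (9 rose and 15 fell on that scale). DEPTOR, a subunit that inhibits mTOR, had 1127 and 1075 at 24 h, against 186 and 213 in normoxia, and rose 5.53-fold. PIK3IP1, an inhibitor of PI3K, had 1274 and 1415 at 24 h, against 267 and 239 in normoxia, and rose 5.31-fold. DDIT4, known as REDD1 and an inhibitor of mTORC1 under hypoxia, had 19615 and 20603 at 24 h, against 6378 and 6489 in normoxia. SESN1 and SESN2, leucine-sensing restrainers of mTORC1, rose 2.78-fold and at least 2.1-fold. Not every riser restrains the pathway: RRAGA, a GTPase that recruits mTORC1 to the lysosome, had 22655 and 24931 at 24 h, against 4699.6 and 4744 in normoxia, a rise of 5.03-fold. IRS2, which couples the insulin receptor to PI3K, rose by 1.83, and MTOR itself fell by 0.61.

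Autophagy and the lysosome, through which cells recycle their components, came next. Of 33 autophagy genes 15 rose and 4 fell, with a median of 0.14, which was -0.23 with the signals as deposited (6 rose and 14 fell on that scale). MAP1LC3B, the membrane protein LC3B of the autophagosome, had 6252 and 6204 at 24 h, against 1797 and 1944 in normoxia, and rose 3.33-fold. ULK1, the kinase that starts autophagy, had 19269.7 and 21367 at 24 h, against 5718 and 6767 in normoxia, and rose 3.26-fold. ATG14 and WIPI1, which act at the forming membrane, rose 2.6-fold and 2.44-fold. The receptor SQSTM1, p62, fell by 0.46 on the log2 scale, ATG3 by 0.46, ATG4C by 0.47 and PIK3R4 by 0.87.

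Of 31 lysosomal genes 20 rose and 2 fell, with a median of 0.50, which was 0.30 with median-centred arrays and -0.04 with the signals as deposited (7 rose and 10 fell on that scale). CTSB, the protease cathepsin B, had signals of 8532 and 7999 at 24 h, against 1118 and 1446 in normoxia, and rose 6.5-fold (log2 change 2.70 ± 0.13). CTSD, cathepsin D, had 3823 and 4474 at 24 h, against 1675 and 1527 in normoxia. NEU1, the lysosomal sialidase, had 4716 and 4303 at 24 h, against 1864 and 1822 in normoxia. GAA, the acid glucosidase that degrades glycogen, had 1220.3 and 1095 at 24 h, against 403 and 519 in normoxia. Each of these 4 rose 2.44-fold or more, and none had overlapping groups, which also held for 70.1% of all genes. CTSA, CTSF and HEXA rose by 1.02, 1.01 and 0.96 on the log2 scale. CTSC, cathepsin C, and ATP6V1A, a subunit of the proton pump, fell by 0.58 and 0.34.

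The lysosomal promoters are shown because TCACGTG, the core of the element bound by TFEB and its relatives, occurred in 8 of the 21 with a promoter sequence, and in 7 of the 14 that rose (ATP6V0D1, CTSA, CTSD, CTSF, GAA, MCOLN1 and NEU1). Over all 11848 tested genes with a promoter it occurred in 5.33%, in 5.45% of genes that rose and in 5.76% of those that fell. It was searched on both strands and contains CACGTG and ACGTG. GAA lies on the plus strand at chr17:80101331-80101630, CTSD on the minus strand at chr11:1763878-1764177 and NEU1 on the minus strand at chr6:31862772-31863071. Capitals mark the matches to TCACGTG, which lie at bases -77 to -70 and -32 to -25 of GAA (each read on both strands), at -47 to -41 of CTSD (reverse strand) and at -127 to -121 of NEU1. These 3 promoters, and that of H2BC21 below, were chosen after the values were seen. A match describes the letters and is no measure of binding.
GAA: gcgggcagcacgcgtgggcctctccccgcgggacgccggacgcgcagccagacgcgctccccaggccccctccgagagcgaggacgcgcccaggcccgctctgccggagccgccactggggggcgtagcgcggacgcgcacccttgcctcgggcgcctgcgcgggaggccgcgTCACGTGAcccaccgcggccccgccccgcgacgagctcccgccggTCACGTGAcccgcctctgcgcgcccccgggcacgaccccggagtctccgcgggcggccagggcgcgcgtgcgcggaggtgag
CTSD: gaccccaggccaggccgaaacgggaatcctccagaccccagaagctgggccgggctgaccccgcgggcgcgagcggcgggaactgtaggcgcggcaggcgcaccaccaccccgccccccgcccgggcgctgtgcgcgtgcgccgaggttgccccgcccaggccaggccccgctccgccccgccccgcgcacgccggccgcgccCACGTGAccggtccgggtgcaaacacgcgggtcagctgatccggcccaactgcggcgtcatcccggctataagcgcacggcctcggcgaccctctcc
NEU1: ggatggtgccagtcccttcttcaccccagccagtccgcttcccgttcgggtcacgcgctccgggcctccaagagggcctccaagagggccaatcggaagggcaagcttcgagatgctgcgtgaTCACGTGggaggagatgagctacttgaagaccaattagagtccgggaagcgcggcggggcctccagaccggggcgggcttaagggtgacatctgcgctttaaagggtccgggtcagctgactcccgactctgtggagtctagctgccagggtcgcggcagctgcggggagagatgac

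Genes that charge tRNA and start translation fell in large part. Of 19 cytosolic aminoacyl-tRNA synthetases, which load amino acids onto tRNA, 16 fell and 1 rose, with a median of -0.92. VARS1 had signals of 401 and 421 at 24 h, against 1761 and 1393 in normoxia, and fell 3.81-fold. LARS1 had 1122 and 1127 at 24 h, against 2436 and 2409 in normoxia, and fell 2.15-fold. HARS1 and SARS1 fell 2.73-fold and 2.84-fold. GARS1 was the exception, with a rise of 0.52 on the log2 scale. That rise was not called with median-centred arrays or with the signals as deposited. A second kept probe of VARS1 did not share its call, with a log2 change of -0.04.

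Of 21 amino acid transporters 12 fell and 4 rose, with a median of -0.43. SLC7A11, the cystine importer that feeds glutathione synthesis, had 115 and 122 at 24 h, under the bound, against 715 and 572 in normoxia, a fall of at least 3.25-fold. SLC7A1, a carrier of arginine and lysine, had 989.9 and 849 at 24 h, against 3300.4 and 3542 in normoxia, and SLC1A5, the glutamine carrier, fell 3.54-fold. SLC6A6, the taurine transporter, rose at least 3.72-fold. Of 44 translation factors 28 fell and 4 rose (median -0.48): EIF3J had 622 and 547 at 24 h, against 2021 and 2101 in normoxia, and the scaffold EIF4G1 fell by 1.81 on the log2 scale. EIF4EBP1, the repressor of cap-dependent initiation that mTORC1 inactivates, rose, with 785 and 851 at 24 h, against 378 and 382 in normoxia. Of 22 subunits and factors of RNA polymerase III, which makes tRNA and 5S rRNA, 13 fell and 2 rose (median -0.52), among them POLR3K at 447 and 385 at 24 h, against 1599.6 and 1629 in normoxia.

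Cytosolic ribosomal proteins moved less. Of 67 measured, 15 fell and 2 rose, with a median of -0.09, so the share that fell was near the background of 24.2%. With the signals as deposited, 56 fell and 1 rose with a median of -0.46, close to the -0.41 of all genes. RPL29 fell 2.78-fold and RPL4 fell 1.45-fold. RPL37 is uncertain, since its brightest probe rose 2.47-fold while another of its probes fell by 0.29 on the log2 scale. Ribosomal protein probes can also hybridise to pseudogene transcripts.

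Genes for the synthesis of nucleotides and one-carbon units also fell. Of 17 purine genes 11 fell and 3 rose, with a median of -0.74. GART, which carries 3 steps of purine synthesis, had 1191 and 1099.8 at 24 h, against 4501 and 4584 in normoxia, and fell 3.97-fold. ATIC, which closes the purine ring, had 1604 and 1681 at 24 h, against 6524 and 5321 in normoxia, and PFAS, another step of the pathway, fell by 2.35 on the log2 scale. AK4, a mitochondrial adenylate kinase, rose 3.19-fold, with 2438 and 2146 at 24 h, against 708 and 727 in normoxia. Of 19 pyrimidine genes 10 fell and 4 rose (median -0.53), with CTPS1, described above, the furthest. CAD, which carries the first steps of pyrimidine synthesis, had 157 and 154 at 24 h, under the bound, against 688 and 772 in normoxia, a fall of at least 3.71-fold. UCK2, a salvage kinase, fell 3.24-fold, and CDA, cytidine deaminase, rose 3.5-fold.

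Of 18 genes of serine, folate and one-carbon metabolism 12 fell and none rose, with a median of -0.62. MTHFD1, the trifunctional cytosolic folate enzyme, had 279 and 246 at 24 h, against 932 and 994 in normoxia. CBS, which commits homocysteine to cysteine, had 1212 and 1295 at 24 h, against 4239 and 3884 in normoxia, and fell 3.24-fold. PSPH, the last enzyme of serine synthesis, fell at least 2.83-fold, and MTHFD2, a mitochondrial folate enzyme, fell 2.16-fold. In polyamine metabolism genes moved both ways. SRM, spermidine synthase, had 503 and 532 at 24 h, against 3051 and 2308 in normoxia, and fell 5.13-fold, and AMD1, which supplies its aminopropyl donor, fell 3.98-fold. SAT1, which acetylates polyamines for export and breakdown, rose by 1.78 on the log2 scale, and ARG2, the mitochondrial arginase, which makes the precursor ornithine, rose 2.53-fold. Over the 14 polyamine genes 5 rose and 6 fell, with a median of 0.06, which was -0.30 with the signals as deposited (3 rose and 7 fell on that scale).

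Nuclear genes of mitochondrial gene expression fell in large part. Of 75 mitochondrial ribosomal proteins 57 fell and 2 rose, with a median of -0.64. MRPL3 had 2488 and 2511 at 24 h, against 9073 and 8940.1 in normoxia, and fell 3.6-fold, and MRPL24 had 1785 and 1782 at 24 h, against 5784 and 5707 in normoxia. Of 20 genes that maintain and express mitochondrial DNA 17 fell and 2 rose (median -0.74). TWNK, the mitochondrial DNA helicase, had 187 and 236 at 24 h, against 1025 and 1051 in normoxia, and fell 4.93-fold. TFB2M, a transcription factor of the organelle, fell 3.9-fold, and TFAM, which packages its DNA, fell by 1.17 on the log2 scale. Of 27 protein import genes 21 fell and 1 rose (median -0.69): TIMM10, a chaperone of the intermembrane space, had 872 and 758 at 24 h, against 4725 and 4673 in normoxia, a fall of 5.78-fold. The matrix chaperonins HSPD1 and HSPE1 fell 3.21-fold and 3.85-fold.

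Of 15 genes of mitochondrial fission, fusion and mitophagy 8 fell and 2 rose (median -0.32), with PINK1, the kinase that marks damaged mitochondria, at 2560.2 and 2387 at 24 h, against 1328 and 1627 in normoxia, and the fusion protein MFN1 lower by 1.81-fold. The call for PINK1 was lost with the signals as deposited (adjusted p = 0.569). The tricarboxylic acid cycle split by enzyme. Of its 22 genes 4 rose and 9 fell (median -0.21). IDH2, the mitochondrial NADP-dependent isocitrate dehydrogenase, had 2107 and 2204 at 24 h, against 408 and 461 in normoxia, and rose 4.97-fold. Its cytosolic counterpart IDH1 had 1433 and 1299.7 at 24 h, against 3158 and 3893 in normoxia, and fell 2.57-fold. ACO1, the cytosolic aconitase that doubles as an iron sensor, rose 1.93-fold, a call lost with the signals as deposited, and CS, citrate synthase, fell 2.12-fold.

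Lipid genes moved in both directions. Among 23 genes of lipid droplets and lipid uptake 7 rose and 5 fell (median 0.09, -0.02 with median-centred arrays and -0.36 with the signals as deposited, where 3 rose and 11 fell). PLIN2, the coat protein of lipid droplets, had 12732 and 14649 at 24 h, against 1751 and 1632 in normoxia, and rose 8.08-fold. VLDLR, a lipoprotein receptor that hypoxia is known to induce, rose at least 2.43-fold, and the fatty acid carrier FABP5 fell 3.34-fold. ABHD5, the activator of the lipase that empties droplets, fell by 1.35 on the log2 scale. Of 24 genes of fatty acid oxidation and peroxisomes 5 rose and 9 fell (median -0.21). HADH, a dehydrogenase of beta-oxidation, had 1031 and 1075 at 24 h, against 4116 and 4110.5 in normoxia, a fall of 3.91-fold, and CPT1A, the gate of fatty acids into mitochondria, fell at least 1.64-fold, a call that neither of its 2 other kept probes, both dim, shared (log2 changes -0.08 and -0.19). Of 23 genes of sphingolipid and phospholipid synthesis 4 rose and 11 fell (median -0.24), with the 2 choline kinases opposed: CHKA had 917 and 1103 at 24 h, against 3191 and 2668 in normoxia, and CHKB had 999 and 1093 at 24 h, against 396 and 426 in normoxia.

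Genes of nuclear transport, splicing and protein folding fell in large part. Of 53 nuclear pore and transport genes 40 fell and 1 rose, with a median of -0.77. SEH1L, a scaffold nucleoporin, had 273 and 333 at 24 h, against 1066 and 1179 in normoxia, and the importin TNPO1 had 1128 and 1150.5 at 24 h, against 2999 and 3262 in normoxia. NUP155 and NUP93 fell 2.6-fold and 2.21-fold, and XPO6, the exportin of actin, rose by 0.47 on the log2 scale. The rise of XPO6 was not called with median-centred arrays or with the signals as deposited. Of 55 splicing genes 35 fell and 5 rose (median -0.56). SRSF3, a serine- and arginine-rich splicing factor, had 324 and 307 at 24 h, against 1394 and 1449 in normoxia, and fell 4.51-fold. The kinases of these factors were among the risers: CLK3 had 5962 and 6048 at 24 h, against 1707 and 2105 in normoxia, and CLK1 and CLK4 rose 2.93-fold and at least 1.35-fold. Of 26 RNA decay genes 9 rose and 9 fell. ZFP36, tristetraprolin, which destabilises cytokine mRNA, had 6806 and 7365 at 24 h, against 1681 and 1315 in normoxia, and rose 4.76-fold, and the exosome subunit EXOSC4 fell 3.35-fold.

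Of 17 genes listed under the CCT chaperonin and prefoldin, which fold actin and tubulin, 13 fell and none rose (median -0.70). CCT4 had 260.0 and 292 at 24 h, against 882 and 883 in normoxia. RUVBL1, an ATPase of chromatin and assembly complexes, was also counted in this list and fell 4.44-fold. Of 24 heat shock genes 17 fell and 1 rose (median -0.67). HSPA8, the constitutive HSP70 chaperone, had 4189.7 and 4716 at 24 h, against 17429 and 20669.6 in normoxia, and fell 4.27-fold. BAG3, a cochaperone that directs clients to autophagy, was the riser, by 0.50 on the log2 scale. With median-centred arrays or the signals as deposited no gene of this list was called higher. Of 35 proteasome genes 27 fell and none rose (median -0.55), with PSMA5 at 7619 and 7265 at 24 h, against 19908 and 19444 in normoxia. Tubulin genes and their regulators had 12 of 23 members lower and 3 higher (median -0.34): TUBB, often used as a reference gene, fell 2.22-fold by its brightest probe, while another bright probe of it did not pass (log2 change -0.41), and TUBB6 rose 2.36-fold, though tubulin probes can hybridise to related transcripts. Among 13 measured reference genes 2 rose and 3 fell.

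Chromatin enzymes were counted by class. Of 23 JmjC demethylases and TET enzymes, which use oxygen as a substrate, 11 rose and 4 fell, with a median of 0.19, which was 0.01 with median-centred arrays (10 rose and 6 fell) and -0.33 with the signals as deposited (7 rose and 11 fell). KDM3A, a histone H3 demethylase and known HIF target, had 3281 and 3519.7 at 24 h, against 581 and 609.7 in normoxia, and rose 5.71-fold. KDM7A had 827 and 802 at 24 h, against 155 and 157 in normoxia, where it lay under the bound, and KDM5B rose 2.49-fold. The strongest fall of the list was RIOX1, a nucleolar oxygenase of ribosomal protein, by 1.51 on the log2 scale. Of 30 histone and DNA methyltransferase genes 14 fell and 4 rose (median -0.29). The arginine methyltransferases led the falls: PRMT3, which acts on ribosomal protein, had 537 and 583 at 24 h, against 2794 and 2362 in normoxia, and PRMT1 and PRMT5 fell 2.33-fold and 2.22-fold.

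Histone genes moved late. Of 34 measured, 16 rose and 6 fell, with a median of 0.29, which was -0.18 with the signals as deposited (12 rose and 13 fell on that scale). H2BC21 had signals of 5353 and 5856 at 24 h, against 853 and 921 in normoxia, and rose 6.32-fold. H2BC5 had 11954 and 12399 at 24 h, against 3641 and 3139 in normoxia, and H4C8 had 3123 and 3687 at 24 h, against 455 and 496 in normoxia. The genes that fell were H2AX, H2BC12, H2AZ1, MACROH2A1, H3-3B and H4C3, which include the replication-independent variants H2AZ1, H3-3B and MACROH2A1. Histone genes are close copies, and a probe can detect several of them. The promoter of H2BC21, on the minus strand at chr1:149886633-149886932, is shown with its TATAAA boxes in capitals, at bases -212 to -207 (reverse strand) and -30 to -25. TATAAA occurred on either strand in 21 of 33 histone promoters and in 10 of the 16 that rose, against 7.68% of all promoters.
H2BC21: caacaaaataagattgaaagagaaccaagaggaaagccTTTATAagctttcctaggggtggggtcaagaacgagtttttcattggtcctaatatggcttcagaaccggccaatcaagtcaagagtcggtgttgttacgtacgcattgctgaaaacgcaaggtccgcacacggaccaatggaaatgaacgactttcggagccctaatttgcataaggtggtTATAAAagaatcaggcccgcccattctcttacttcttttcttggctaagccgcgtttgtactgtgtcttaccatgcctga

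DNA repair genes fell, with 14 of 23 genes of homologous recombination and the Fanconi pathway lower and 1 higher (median -0.50), and 13 of 25 genes of mismatch and base excision repair lower and 2 higher (median -0.38). EXO1, the exonuclease shared by both lists, had 723 and 668 at 24 h, against 2581 and 2396 in normoxia, a fall of 3.58-fold. BLM, the Bloom syndrome helicase, and APEX1, the abasic site endonuclease, fell 1.96-fold and 2.26-fold. POLB, the repair polymerase, had 4241 and 4433 at 24 h, against 2397 and 1729.8 in normoxia, and rose 2.13-fold. In the cell cycle list 15 of 31 cyclin, CDK inhibitor and E2F genes fell and 8 rose (median -0.34). The inhibitors and brakes were among the risers: CCNG2, an atypical cyclin that restrains division, had 1366 and 1740.1 at 24 h, against 243 and 216 in normoxia, and CDKN2D and CDKN1C rose 3.98-fold and 2.81-fold. The drivers CCND1, CDK4 and CDK6 fell by 1.13, 0.87 and 1.09 on the log2 scale.

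The MYC and MAX network changed on both sides. MYC had 3503 and 3555 at 24 h, against 9338 and 8753 in normoxia, and fell 2.56-fold, and its partner MAX had 136 and 149.9, under the bound, against 328 and 291 in normoxia. Other kept probes of MAX had log2 changes of -0.27 and 0.19, which did not pass, and -0.69, which passed. The proteins that compete with MYC for MAX rose: MXD1 had 6088 and 6393 at 24 h, against 596 and 753 in normoxia, a rise of 9.31-fold, and MXI1 had 835 and 844 at 24 h, against 135 and 154 in normoxia, a rise of at least 4.27-fold. Other kept probes of MXI1, all dim, had log2 changes of 0.24 and 0.13, which did not pass, and 1.55, which passed. MNT, MXD4 and MXD3 rose by 0.96, 0.90 and 0.62 on the log2 scale. Over the 12 genes of the network 5 rose and 3 fell (median 0.08, -0.29 with the signals as deposited, where 2 rose and 4 fell), and MXD1 and MXI1 differed by more than the shift of that scaling. Of 20 circadian clock genes 10 rose and none fell, with a median of 0.32, which was -0.11 with the signals as deposited (4 rose and 8 fell on that scale). The transcriptional repressors led: NFIL3 had 5188 and 5362 at 24 h, against 853 and 906 in normoxia, and BHLHE40, also a known HIF target, had 26864 and 27517 at 24 h, against 8379 and 8694 in normoxia. PER2, a core repressor of the clock, rose 2.09-fold, a call that another of its probes did not share.

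Of 35 genes of the BCL2 family and cell death 14 rose and 8 fell (median 0.16, -0.02 with median-centred arrays and -0.36 with the signals as deposited, where 5 rose and 17 fell). BIK, a killer protein of the BH3-only class, had 1833 and 2076 at 24 h, against 232 and 262 in normoxia, and rose 7.91-fold. The death receptor TNFRSF10B and the decoy receptor TNFRSF10D rose 2.09-fold and 4.68-fold. Protective members moved both ways, with BCL2L1 and MCL1 higher by 0.92 and 0.77 on the log2 scale, while BCL2 and BIRC5, survivin, fell at least 1.75-fold and 2.48-fold.

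Genes of cell shape and contact followed no single direction. Of 26 junction genes 10 rose and 4 fell (median 0.13, -0.23 with the signals as deposited, where 6 rose and 11 fell). CLDN7, a tight junction claudin, had 2420.0 and 2852 at 24 h, against 539 and 448 in normoxia, and CDH3, P-cadherin, and CGN, cingulin, rose at least 1.98-fold and at least 2.77-fold. CDH2, N-cadherin, and TJP1, a tight junction scaffold, fell at least 2.39-fold and 1.98-fold. Only 7 of 16 epithelial-mesenchymal transcription factors were measured, and of these 4 rose and none fell (median 0.53, -0.01 with the signals as deposited, where 1 rose and 2 fell). ZEB2 had 307 and 292 at 24 h, against 162 and 162 in normoxia, and FOXC2 rose 1.86-fold, a call lost with the signals as deposited and not shared by its other kept probe, which was dim (log2 change -0.05). SNAI2 rose 1.57-fold and TWIST2 at least 1.4-fold, but SNAI2 reversed to -0.01 with the signals as deposited, and the call for TWIST2 was lost without 24 h array 2 or normoxia array 2. Of 31 integrin and focal adhesion genes 10 rose and 7 fell (median 0.10, -0.01 with median-centred arrays and -0.35 with the signals as deposited, where 4 rose and 16 fell). ITGA5, the fibronectin receptor chain, had 21631 and 23607 at 24 h, against 6297 and 5284 in normoxia, and ITGB4, which binds laminin, rose 4.16-fold. ITGB2, the beta chain of leukocyte integrins, had 6133 and 6313 at 24 h, against 1576 and 1624 in normoxia.

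Of 26 YAP and TEAD target genes 10 fell and 4 rose (median -0.18). The largest change of the list was IGFBP3, an insulin-like growth factor binding protein that is also in the HIF target list, with 30574 and 34142 at 24 h, against 1608 and 2335 in normoxia, a rise of 16.7-fold. Beside ANKRD1, the canonical target CCN2, connective tissue growth factor, had 140.2 and 143 at 24 h, under the bound, against 846 and 742 in normoxia, a fall of at least 4.03-fold, and CCN1 fell by 2.24 on the log2 scale. TEAD4, a DNA-binding partner of YAP, had 873 and 923 at 24 h, against 2662 and 2642 in normoxia, while YAP1 rose by 0.62 and AXL by 1.04.

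Redox and metal genes were divided. Of 33 NRF2 target and glutathione genes 17 fell and 6 rose (median -0.33). ABCC2, an exporter of glutathione conjugates, had 389.9 and 408 at 24 h, against 1737 and 1794 in normoxia, and PRDX6 fell 2.25-fold. HMOX1, heme oxygenase 1, which HIF also induces, rose 2.64-fold, with 1560.3 and 1579.9 at 24 h, against 539 and 658 in normoxia. The subunits of the enzyme that limits glutathione synthesis were opposed, with log2 changes of 0.90 for GCLC and -1.60 for GCLM. Of 23 metallothionein and zinc transporter genes 9 rose and 4 fell (median 0.14, -0.09 with median-centred arrays and -0.43 with the signals as deposited, where 5 rose and 12 fell). MT1X had 47189 and 46344 at 24 h, against 5319 and 7506 in normoxia, and MT1F had 3306 and 3302 at 24 h, against 358 and 355 in normoxia. MT1E fell by 0.56, and metallothionein probes can hybridise to sister genes. Of 15 pH genes 3 rose and 3 fell (2 and 10 with the signals as deposited), among them ATP6V0A2, a proton pump subunit, lower by 3.19-fold, and SLC26A6, an anion exchanger, higher by 2.32-fold.

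The remaining lists had genes on both sides. Of 29 channel and pump genes 8 rose and 6 fell (4 and 17 with the signals as deposited), with CACNA1H, a T-type calcium channel, higher by at least 3.82-fold. The store-operated channel genes ORAI3 and ORAI1 were opposed, ORAI3 at 626 and 603 at 24 h, against 153 and 169 in normoxia, and ORAI1 at 322 and 332 at 24 h, against 605 and 518 in normoxia. Of 35 Golgi glycosylation genes 8 rose and 6 fell (2 and 23 with the signals as deposited), with GALNT11 higher by 2.12-fold and GCNT1 lower by at least 1.4-fold. Of 36 ubiquitin ligase genes 8 rose and 12 fell (3 and 26 with the signals as deposited), with SKP2, which marks the CDK inhibitor p27 for destruction, at 1334 and 1618 at 24 h, against 3806 and 4068 in normoxia. Of 27 long noncoding RNAs and snoRNA hosts 5 rose and 8 fell (1 and 18 with the signals as deposited). H19, an imprinted noncoding RNA, had 2375 and 2245 at 24 h, against 328 and 372 in normoxia, and rose 6.61-fold, and the snoRNA hosts SNHG17 and DANCR fell 3.03-fold and 2.93-fold. HIF1A mRNA had 2206 and 2049 at 24 h, against 2014 and 1634 in normoxia, and did not pass (log2 change 0.23 ± 0.18, adjusted p = 0.322). NDRG3 mRNA had 1639 and 1790.3 at 24 h, against 1329 and 1348 in normoxia (log2 change 0.36 ± 0.12, adjusted p = 0.0155), a rise that reversed to -0.31 with the signals as deposited and was not shared by its other kept probe (log2 change 0.24).

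Part of the difference arose after 12 h. Between 24 h and 12 h of hypoxia in the same line, 4147 genes passed (27.2%), 1858 higher at 24 h (12.2%) and 2289 lower (15%). This comparison uses the same 24 h arrays, so its values are set beside the others and count as no further support. The tRNA synthetases had a median of -0.08 at 12 h and -0.92 at 24 h against normoxia, and 15 of 19 were lower at 24 h than at 12 h. Purine synthesis stood at -0.12 at 12 h and -0.74 at 24 h, and one-carbon metabolism at -0.10 and -0.62. Heat shock genes moved early, with medians of -0.30 at 3 h, -0.29 at 6 h, -0.57 at 12 h and -0.67 at 24 h. Histone genes stood at -0.11, -0.12, -0.05 and 0.29 at 3, 6, 12 and 24 h, and 19 of 34 were higher at 24 h than at 12 h and 4 lower. Lysosomal genes stood at -0.03, 0.05, 0.30 and 0.50 at these times.

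**Figure D3:**
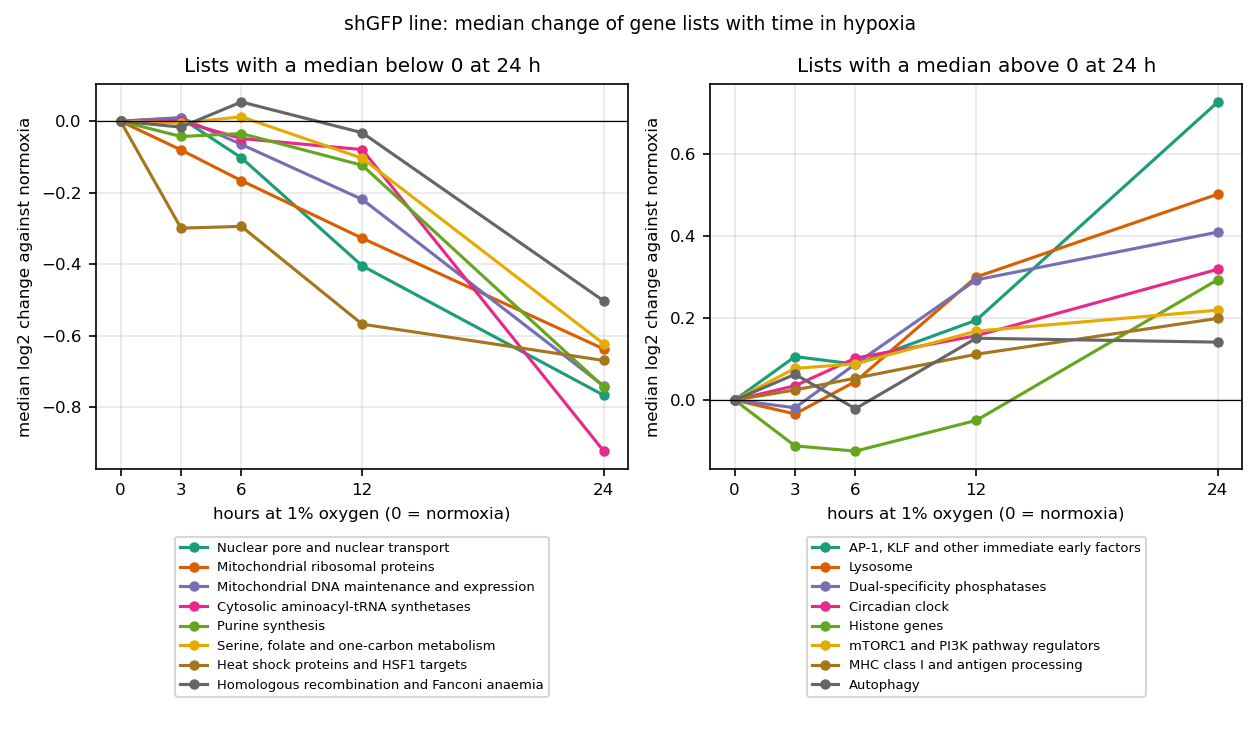
Median log2 change against normoxia (y axis) of 16 gene lists at 3, 6, 12 and 24 h of 1% oxygen in the shGFP line (x axis, hours), with 8 lists below 0 at 24 h on the left and 8 above 0 on the right. The tRNA synthetases stand at -0.08 at 12 h and -0.92 at 24 h, and histone genes cross 0 between 12 h and 24 h, while with the signals as deposited the 24 h median of histone genes was -0.18 and those of lysosome, autophagy, circadian, mTORC1 and MHC class I genes were below 0 as well.

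Single genes showed the late change more sharply. MRGPRX3, a G protein-coupled receptor, had signals of 731 and 712 at 24 h, against 87.6 and 90 in normoxia, and lay under the bound in normoxia and at 12 h. It was at least 3.67-fold higher at 24 h than at 12 h (adjusted p = 8.92e-13). CCL20, S100A8, IL1B, EFEMP2 and S100A9 were higher at 24 h than at 12 h by 2.49, 2.57, 2.53, 2.47 and 2.42. Among them CCL20 stood at -0.32 at 6 h and 0.48 at 12 h. ASNS, asparagine synthetase, and PSAT1, a transaminase of serine synthesis, both targets of the amino acid response factor ATF4, turned over time. ASNS stood at -0.02, 0.71, 1.37 and -0.66 against normoxia at 3, 6, 12 and 24 h, and PSAT1 at 0.06, 0.46, 0.69 and -1.33. Both were lower at 24 h than at 12 h, with log2 differences of -2.03 and -2.02 (adjusted p = 1.16e-06 and 7.98e-05). At 24 h ASNS had signals of 1192 and 1330.4, against 2016 and 1969.7 in normoxia, and its call against normoxia was lost when any of the 4 arrays was left out and was not shared by its other kept probe (log2 change -0.29). SNORD104, a small nucleolar RNA, stood at -0.10 at 12 h and -1.94 at 24 h.

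**Figure D4:**
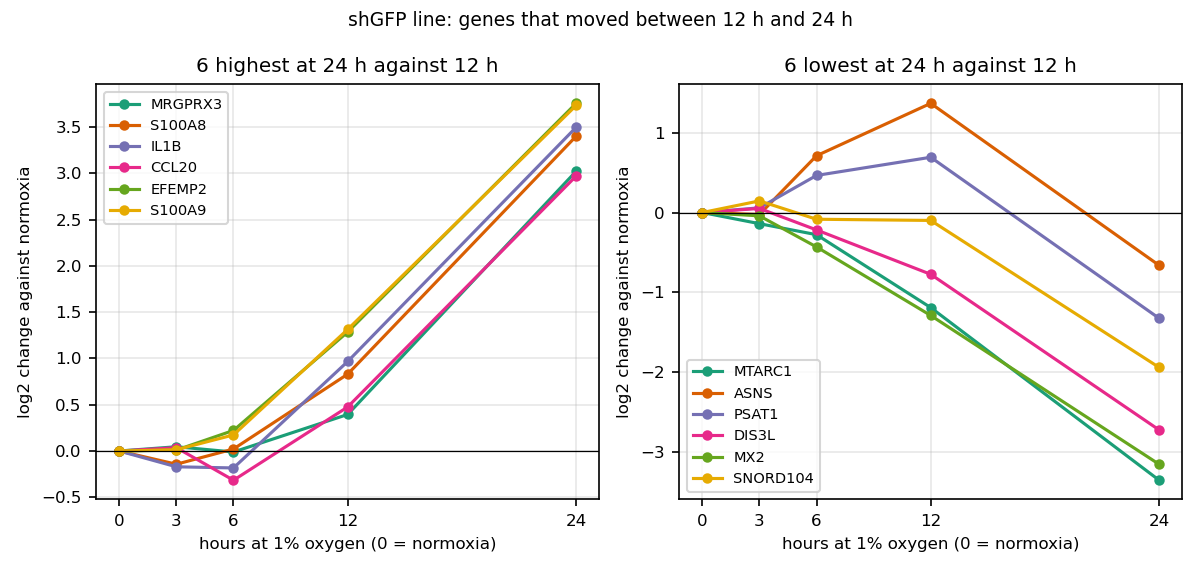
Log2 change against normoxia (y axis) over hours at 1% oxygen (x axis) for the 6 genes with the highest and the 6 with the lowest difference between 24 h and 12 h in the shGFP line. MRGPRX3 lies under the bound up to 12 h and EFEMP2 up to 6 h, so their changes from those times are minima, while CCL20 stands at 0.48 at 12 h and 2.97 at 24 h, and ASNS stands above 0 at 12 h (1.37) and below 0 at 24 h (-0.66).

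The classes of genes were then set beside the knockdown lines. The shHIF1A and shNDRG3 cells at 12 h were compared with shGFP cells at 12 h of hypoxia, and none of those arrays belongs to the 24 h or normoxia groups, though all 24 arrays were normalised together and share the estimate of the spread. Both comparisons share the shGFP 12 h arrays with each other, so their values are given side by side. Neither knockdown line was measured in normoxia here. A difference present before hypoxia and a changed response to hypoxia therefore cannot be told apart in these values. HIF1A was lower in shHIF1A cells at 12 h (log2 difference -1.42, adjusted p = 1.72e-06), and NDRG3 was lower in shNDRG3 cells (log2 difference -2.15, adjusted p = 7.99e-13). In shHIF1A cells 10.9% of all genes were higher and 12.4% lower, and in shNDRG3 cells 13.4% were higher and 14% lower. Of the 3223 genes that rose at 24 h, 33.1% were lower and 3.91% higher in shHIF1A cells, and 34.9% were lower and 5.93% higher in shNDRG3 cells. Of the 3694 genes that fell at 24 h, 30.6% were higher and 8.42% lower in shHIF1A cells, and 35.3% were higher and 9.61% lower in shNDRG3 cells. Of the 8329 genes that did not pass at 24 h, 4.90% were higher and 6.14% lower in shHIF1A cells, and 6.65% were higher and 7.90% lower in shNDRG3 cells.

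**Figure D5:**
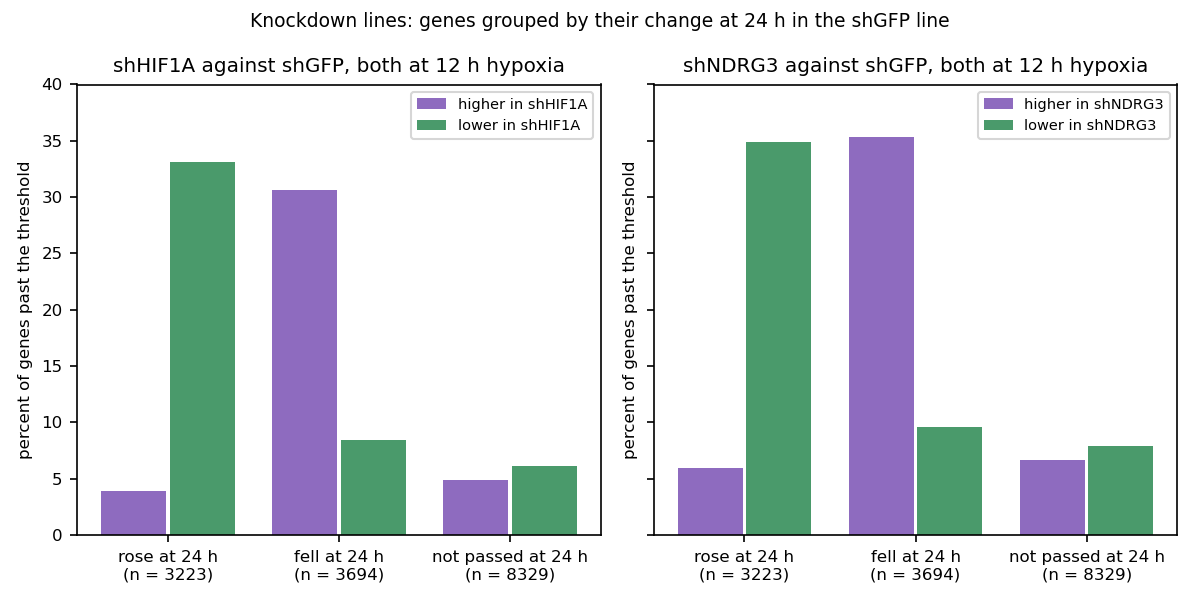
Percent of genes (y axis) that were higher (purple) or lower (green) in shHIF1A or shNDRG3 cells than in shGFP cells, all at 12 h of hypoxia, for the genes that rose, fell or did not pass at 24 h in the shGFP line (x axis). Of the genes that rose at 24 h, 33.1% were lower in shHIF1A cells and 34.9% in shNDRG3 cells, against 6.14% and 7.90% of those that did not pass.

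The lists behaved unequally in these lines. Of the 35 chemokines and interleukins 20 were lower and none higher in each knockdown line. CCL20 lay under the bound in both knockdown lines and was at least 6.02-fold lower in each. IL1B had a log2 difference of -1.97 in shHIF1A cells and was at least 7.08-fold lower in shNDRG3 cells, where it lay under the bound. S100A9 had a difference of -1.57 in shHIF1A cells and was at least 10.2-fold lower in shNDRG3 cells, again under the bound, and PLAT had differences of -2.28 and -4.12, and all of these passed the test. In shNDRG3 cells at 12 h the mean log2 signals of IL1B, S100A9 and PLAT were 6.70, 6.83 and 7.74. In shHIF1A cells at 12 h they were 8.47, 9.40 and 9.58. All lay below the 9.47, 9.65 and 9.84 of shGFP cells in normoxia. Of the 31 lysosomal genes 14 were lower and 1 higher in shHIF1A cells, and 18 were lower and 1 higher in shNDRG3 cells. Of the 16 MHC class I genes 9 were lower in shHIF1A cells and 11 in shNDRG3 cells, and none was higher, and HLA-B had log2 differences of -2.55 in shHIF1A cells and -2.70 in shNDRG3 cells. Among the declining lists, 30 of 53 nuclear pore genes were higher in each line, and 10 of 19 tRNA synthetases were higher and none lower in each line.

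Some members did not follow their class. MB was higher in shHIF1A and shNDRG3 cells by 0.78 and 1.19, and ACO1 by 1.08 and 0.81, although both rose at 24 h. MX2, which fell at 24 h, lay under the bound in both lines and was at least 9.54-fold lower in each. Its mean log2 signal was already 7.34 in shHIF1A cells at 3 h, against 12.12 in shGFP cells at 3 h. ANKRD1 and DKK1, which also fell, were lower in both lines too, ANKRD1 at least 1.94-fold in each, where it lay under the bound, and DKK1 with log2 differences of -1.03 in shHIF1A cells and -1.15 in shNDRG3 cells. HMOX1 was lower in shHIF1A cells (log2 difference -1.51) and higher in shNDRG3 cells (1.03). HEY1 passed in neither line (0.10 and -0.12). At 6 h, where 8.39% of all genes were higher and 9.75% lower in shHIF1A cells and 12.1% higher and 13.2% lower in shNDRG3 cells, 23.1% of the genes that rose at 24 h were lower in shHIF1A cells and 31.8% in shNDRG3 cells, and 22.2% and 32.6% of the genes that fell were higher. The gene values are for 12 h, since shHIF1A cells at 24 h were not analysed here. The shNDRG3 cells do have arrays at 24 h, but their difference from shGFP cells at 24 h was not tested. There the mean log2 signal of S100A9 was 8.56, against 13.38 in shGFP cells at 24 h. EFEMP2 stood at 10.6 against 10.96, and PLA2G4D at 10.10 against 9.94.

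The promoters of genes that rose and fell were compared by their letters, as a description with no test. ACGTG or GCGTG, on either strand, occurred in 60.1% of promoters of genes that rose, in 66.8% of those that fell, in 55.3% of those that did not pass and in 59.2% of all 11848. ACGTG alone occurred in 27.2%, 27.5%, 23.4% and 25.3% of these sets, GCGTG in 47.4%, 55.3%, 43% and 47.1%, and CACGTG in 9.7%, 11.5%, 8.53% and 9.53%. Among genes that changed 4-fold or more, with 145 promoters of risers and 68 of fallers, ACGTG occurred in 34.5% of risers and 38.2% of fallers, GCGTG in 40.7% and 55.9%, and either of them in 58.6% and 73.5%. TATAAA occurred in 15.2% of these risers and 11.8% of these fallers, against 7.68% of all. The mean GC content was 65% in promoters of risers, 63.6% in those of fallers and 61.6% in those that did not pass, and its part in these shares was not tested.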

How the data were processed

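RNA of each sample was amplified from 200 ng and hybridised to 1 single-colour Illumina expression array, per the labels' protocols. The deposited values are linear probe intensities, and whether they were background-subtracted or normalised before deposit is not stated in the labels. The 24 arrays were converted to log2 and quantile normalised in R 4.3.3 with limma 3.58.1 (statmod 1.5.0 for array weights), and signals in the text are these normalised values on a linear scale. Of 47231 probes, the 31100 above the array median in at least 2 arrays were kept, symbols came from the platform annotation (30113 probes with 1 symbol, 8 with several, 17110 not listed), and the brightest kept probe stood for each of 15246 genes. limma's lmFit and eBayes were fitted to all 11 groups, which share 1 estimate of the spread (13 residual and 9.74 prior degrees of freedom), with Benjamini-Hochberg adjustment over all genes. In this design the precision is limited by 2 arrays per group. A probe whose mean log2 signal over a group's arrays lay under 1.5 times the array median was treated as dim there, and folds across that bound are minima.

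Replicate numbers were not used as pairs: deviations of array 1 at 24 h and array 1 in normoxia from their group means correlated at r = -0.0953. With 2 arrays per group this is a single correlation, which cannot settle whether the samples were paired. On simulated data for the comparison of 24 h with normoxia (15246 genes, 50 changed at each size), 8% of genes changed 1.25-fold, 60% at 1.5-fold, 96% at 2-fold and 100% at 4-fold were recovered, with 12 false calls. Far fewer genes were changed there than the 6917 called in the real comparison, so these shares do not give its sensitivity. Named genes were the 12 highest and 12 lowest called genes with no overlap outside the HIF, glycolysis and ribosome biogenesis lists, up to 4 called members with the smallest p from each of 63 lists, the 6 highest and 6 lowest genes between 24 h and 12 h, and HIF1A and NDRG3. The members and lists were chosen with earlier results of these data known, and further list members were named after their values were seen. Promoters came from RefSeq on GRCh38.p14, with the first listed start of each gene.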

Additional observations from a re-analysis of the deposited data

How the results depend on the processing

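The comparison of 24 h with normoxia was recomputed with other scalings, background correction, probe filters, probe summaries, sets of arrays and array weights. Scaling mattered most. Genes higher at 24 h than in normoxia numbered 2103 with median-centred arrays and 1098 with the signals as deposited, against 3223 as reported, and genes lower numbered 9035 with the signals as deposited, against 3694. Between 24 h and 12 h, 881 and 624 genes were higher under these scalings and 3955 lower with the signals as deposited. In shNDRG3 cells 1137 and 1080 genes were higher at 12 h. The dimmer 24 h arrays shift the median gene by -0.41 without scaling and by -0.08 with median-centred arrays, and whether the dimness is technical was not tested. With the signals as deposited SNAI2 reversed to -0.0089, VTN to -0.24, MS4A1 to -0.038, GUSB to -0.13, HIF1A to -0.43 and NDRG3 to -0.31, and with median-centred arrays HIF1A reversed to -0.090; the cause was not tested. Of 271 named genes, 265 kept their direction and call with median-centred arrays, 252 with the signals as deposited (13 lost the call), 269 with the mean of kept probes and 266 to 269 with 1 array left out.

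Leaving out 1 array left 5779 to 6015 calls for 24 h against normoxia (2684 to 2860 higher, 3095 to 3256 lower) and 2756 to 2991 for 24 h against 12 h (1250 to 1369 higher, 1493 to 1622 lower; lowest without 24 h array 2 for the total and without 12 h array 2 for the lower genes). For shHIF1A at 12 h it left 2255 to 2642 calls (987 to 1173 higher, 1268 to 1469 lower), the fewest without shGFP 12 h array 2, and for shNDRG3 2891 to 3162 (1354 to 1456 higher, 1531 to 1706 lower). The replicate block gave 6901 calls for 24 h against normoxia, 4101 for 24 h against 12 h, 3501 for shHIF1A and 4186 for shNDRG3, and changed no named call. Of 270 called named genes 101 had another kept probe. In 88 of these at least 1 other probe shared the call, and RPL37 had a probe that was opposed. Some of the 88 also had a probe that did not pass, among them MAX, MXI1, ITGB4, PDGFB and TEAD4. With 2 arrays per group, a gene that did not pass may still differ. The simulated data held far fewer changed genes, so they do not measure how often that is the case.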

Other observations

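Families defined by the start of their symbols, chosen after the values were seen, were counted at 24 h against normoxia without a test. Over all genes 21.1% rose and 24.2% fell. Other scalings were not run for them. Of 14 measured S100 genes, calcium-binding proteins of which S100A8 and S100A9 are members, 8 rose and none fell, from -0.16 for S100A5 to 3.73 for S100A9 on the log2 scale. Of 49 RAB genes, small GTPases of vesicle traffic, 20 rose and 4 fell, from -1.17 for RAB30 to 1.91 for RAB40C. Of 31 PPP1R genes, which encode regulatory subunits of protein phosphatase 1, 15 rose and 3 fell, with PPP1R3C, a glycogen-targeting subunit, at 2.24 and PPP1R10 at -1.49.

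Of 50 DDX and DHX RNA helicase genes 34 fell and 5 rose, from -2.11 for DDX60L to 2.07 for DDX41. Of 163 small nucleolar RNA genes 66 fell and 4 rose, from -1.94 for SNORD104 to 1.06 for SNORD139, and 102 of them lay under 1.5 times the array median in normoxia. Of 155 LINC genes, long intergenic noncoding RNAs, 22 rose and 1 fell, and 137 lay under that bound in normoxia, with LINC00887 highest at 2.76. The large ZNF family of zinc finger genes had 51 higher and 83 lower of 389, and the TMEM genes 43 higher and 40 lower of 190. Both TMEM shares and the share of ZNF genes that fell lay near those over all genes. The shares of ZNF and LINC genes that rose lay below that over all genes.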
